A study of Mus musculus with 23 samples.

Results

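Fatty acid oxidation in the liver was described through 40 genes: the nuclear receptor Ppara and 39 genes of fatty acid binding and activation, the carnitine shuttle, mitochondrial and peroxisomal beta-oxidation, electron transfer, acyl-CoA hydrolysis and ketone body formation, with further genes listed as targets of PPARA. They were chosen by symbol from the gene column of a table of estimated counts, all 40 were found among its 24440 genes, and all 40 were among the 12891 genes that passed the filter on low counts. Liver RNA came from male mice on a C57Bl/6 background, obtained at 6 to 8 weeks of age and fed either normal chow or a high-fat diet (HFD, with 60% of its calories from fat) for 15 weeks, and livers were perfused before RNA was taken. The mice were wild type, or carried the IL-4 knockout, or were labelled IL-10/4 dKO. Each genotype was fed chow or HFD, which made 6 groups, with 3 livers of IL-4 knockout mice on HFD and 4 livers in every other group. The dKO mice lack IL-4 as well as IL-10 by label, so both knockouts share the loss of IL-4. The series title names nonalcoholic fatty liver disease (NAFLD) as the subject. The comparisons ask what the diet did in each genotype, how the genotypes differed on each diet, and whether the effect of the diet differed between genotypes.

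As background, long-chain fatty acids are tied to coenzyme A, carried into mitochondria as carnitine esters and shortened there by a repeated cycle of oxidation, hydration, oxidation and thiolysis, while peroxisomes shorten very-long-chain and branched acids first. Electrons leave the cycle through flavoproteins, and in liver much of the acetyl-CoA that results is made into ketone bodies for other tissues. PPARA is the fatty-acid-activated nuclear receptor that induces many of these genes in fasting and during lipid overload, as a heterodimer with RXR bound to direct repeats of the hexamer AGGTCA with 1 base between them.

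Total estimated counts ran from 7114454 to 30205070 per library, highest in the dKO-labelled chow group (16220799 to 30205070) and low in IL-4 knockout HFD (7788331 to 8935346). Values below are counts per 1000000 (CPM) after scaling by the trimmed mean of M-values (TMM). Hepatocyte markers (12 genes, albumin among them) summed to between 112100 CPM in IL-4 knockout HFD replicate 2 and 166200 CPM in dKO-labelled HFD replicate 4, the highest sum of any marker list in every library. The labels could not be checked on the deleted genes: Il4 had at most 3 counts in any library, and Il10 had 41 to 67 counts in the dKO-labelled chow libraries and 6 to 21 in the dKO-labelled HFD libraries, against 0 to 4 elsewhere. Gene-level counts do not show whether a transcript carries a deletion, so these mice are called dKO-labelled throughout.

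The dKO-labelled libraries stood apart in other cell types' markers. A sum of 10 neutrophil markers was 134.9 to 426 CPM in dKO-labelled chow and 60.4 CPM in dKO-labelled HFD replicate 4, against 1.49 to 27.8 CPM in the other libraries, all 3 other dKO-labelled HFD livers included. Macrophage markers (10 genes) summed to 760.5 to 963 CPM in dKO-labelled chow and 568 CPM in dKO-labelled HFD replicate 4, against 248 to 533 CPM elsewhere, and cholangiocyte markers (8 genes) to 465 to 842 CPM and 302 CPM, against 37.8 to 170.1 CPM elsewhere. Most of the cholangiocyte sum was Spp1, which averaged 171.8 CPM over all libraries, where each other marker of that list averaged 0.626 to 8.35 CPM. Against wild-type chow, all 10 neutrophil, all 10 macrophage and all 8 cholangiocyte markers were higher, and none was at 0 in a dKO-labelled chow library or in dKO-labelled HFD replicate 4. In that contrast 5 of 7 tested lymphocyte markers were higher too, where 24.4% of all tested genes were higher and 21.9% lower. Hepatocyte markers summed to 119600 to 134100 CPM in dKO-labelled chow and 143000 to 147400 CPM in wild-type chow, with 7 of 12 lower and 2 higher. In IL-4 knockout chow the sum was 121700 to 145200 CPM, which overlapped that of dKO-labelled chow. Against IL-4 knockout chow 8 of the 12 were lower and 2 higher in dKO-labelled chow. In whole-liver RNA, fewer hepatocytes and less of a transcript per hepatocyte cannot be told apart, and the part of these cells in the results below was not tested. IL-4 knockout HFD replicate 2 also had high stellate cell (892.5 CPM, 9 genes) and macrophage (533 CPM) sums.

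Stretches of DNA before the start site are shown for the 4 genes in which a PPARA-type element was found because PPARA is known to bind such repeats. RefSeq promoters (build GRCm38.p6, 250 bases before to 50 bases after the start) were matched for 34 of the 40 genes, as 39 promoters. They were searched on both strands for AGGTCA and for 2 copies of it as a direct repeat with 1 base between them, allowing up to 2 mismatches in the 12 hexamer positions. A repeat can also be counted as a single AGGTCA. The single hexamer was in 8 of the 39 promoters (20.5%) and in 16.3% of all 32851 promoters of the table. The repeat was in 4 of the 39 (10.3%) and in 3.86% of all promoters. A match describes letters and not a bound site. In each sequence, written 5′ to 3′ on the gene's strand without bases that a GENCODE exon of the gene covers, capitals mark the repeat.
Fabp1: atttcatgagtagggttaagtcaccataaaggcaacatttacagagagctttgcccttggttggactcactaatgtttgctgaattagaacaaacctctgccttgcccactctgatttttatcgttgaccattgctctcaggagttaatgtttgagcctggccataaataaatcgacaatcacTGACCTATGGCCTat
Etfa: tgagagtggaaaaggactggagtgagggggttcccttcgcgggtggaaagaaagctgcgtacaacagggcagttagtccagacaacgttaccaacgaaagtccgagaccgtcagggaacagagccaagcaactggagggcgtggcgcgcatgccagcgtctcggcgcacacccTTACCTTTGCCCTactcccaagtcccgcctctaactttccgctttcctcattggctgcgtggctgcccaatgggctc
Acot4: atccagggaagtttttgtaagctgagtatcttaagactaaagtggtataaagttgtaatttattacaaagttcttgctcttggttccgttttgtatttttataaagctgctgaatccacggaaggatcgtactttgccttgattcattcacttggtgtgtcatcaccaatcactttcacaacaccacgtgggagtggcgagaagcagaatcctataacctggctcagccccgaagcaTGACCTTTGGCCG
Creb3l3: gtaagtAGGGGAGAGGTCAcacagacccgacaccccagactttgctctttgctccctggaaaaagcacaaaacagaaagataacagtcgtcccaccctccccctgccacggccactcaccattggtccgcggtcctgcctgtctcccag
The Fabp1 stretch is chr6:71199629-71199826 on the plus strand, with a repeat of 1 mismatch on the opposite strand at -67 to -55, counting the base before the RefSeq start as -1. The Etfa stretch is chr9:55512244-55512493 on the minus strand, with a repeat of 2 mismatches on the opposite strand at -77 to -65. The Acot4 stretch is chr12:84038129-84038378 on the plus strand, with a repeat of 2 mismatches on the opposite strand at -13 to -1, directly before the start. The Creb3l3 stretch is chr10:81092658-81092806 on the minus strand, with a repeat of 2 mismatches on the gene's strand at -209 to -197. It lies before an internal RefSeq start and is intronic in the longer GENCODE transcript.

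Across the 6 groups, 39 of the 40 genes differed (edgeR quasi-likelihood F test over 5 contrasts, adjusted p below 0.05 over all genes tested), where 71.0% of all tested genes did. The exception was Crot, the peroxisomal carnitine octanoyltransferase (adjusted p = 0.135). The log2 fold changes of all 40 genes in the 9 pairs of groups and the 3 differences between diet effects are drawn in the heat map. In what follows a gene rose or fell only where its adjusted p in that comparison was below 0.05. Shares over all tested genes are those of edgeR at that threshold. Counts at an unadjusted p below 0.05, by DESeq2 or by limma-voom are of the 40 genes only, with no share under the same rule beside them.

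**Figure D1:**
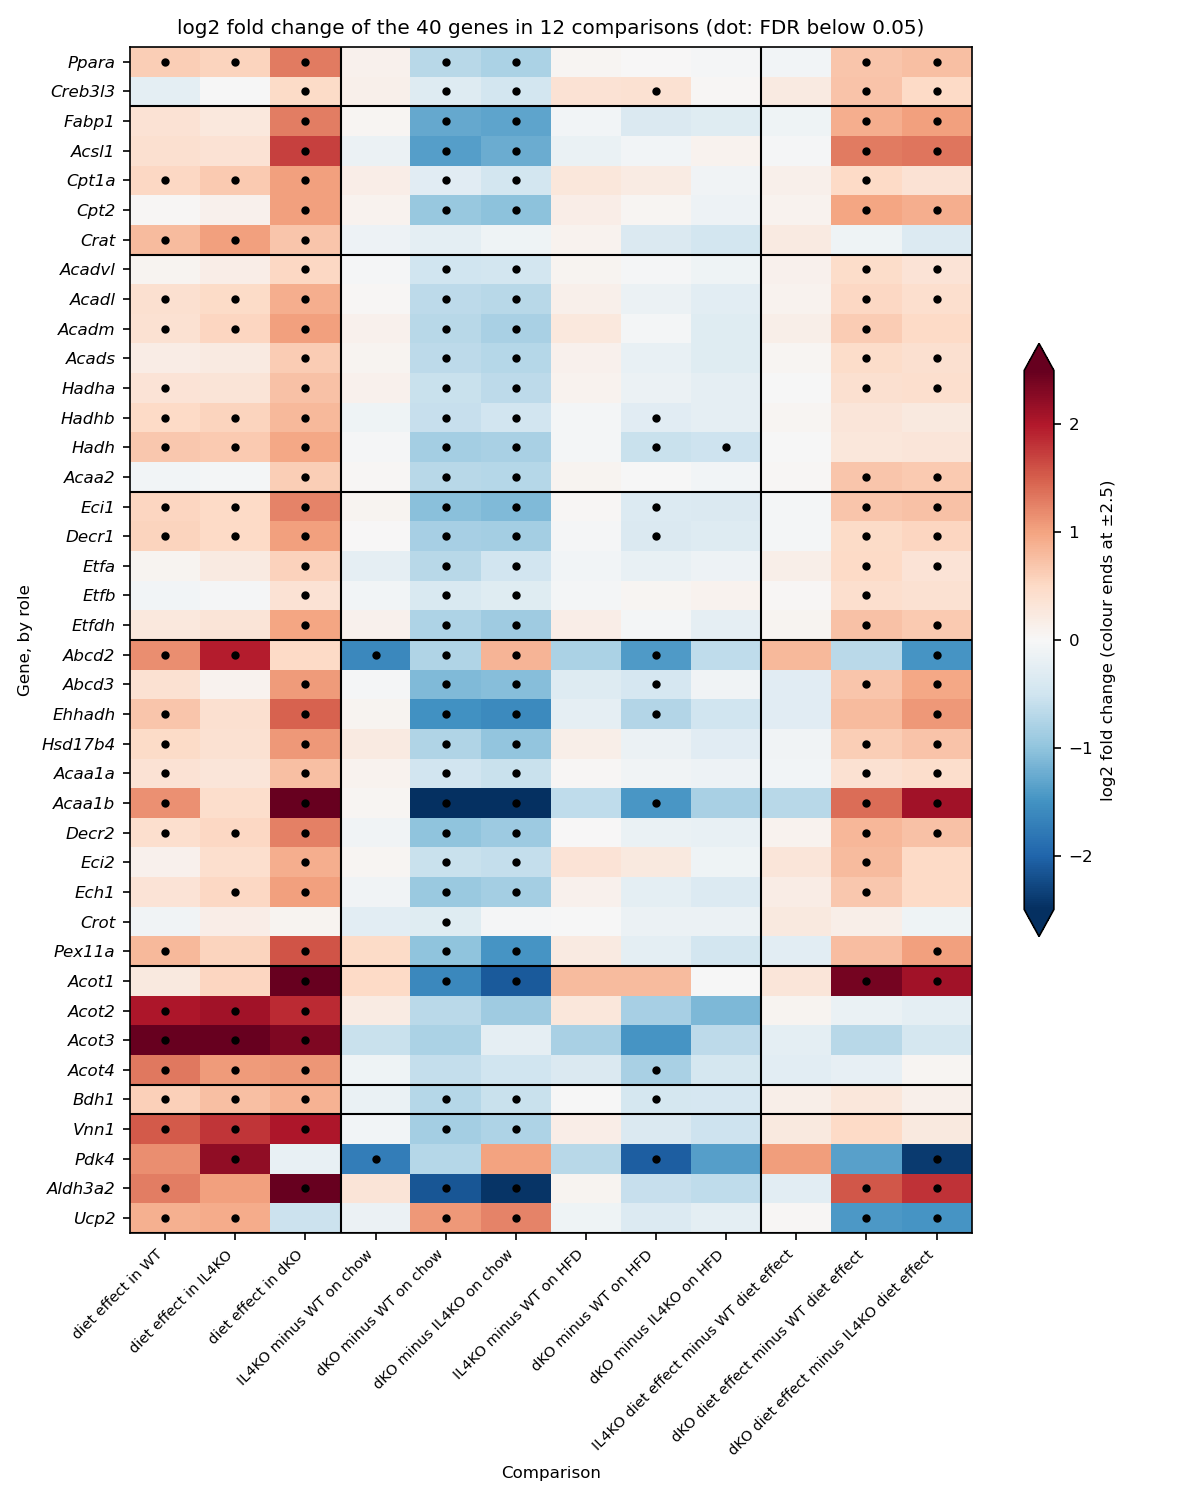
Colour gives the log2 fold change of each of the 40 genes (down the side, by role) in 12 comparisons (along the bottom), and a dot marks an adjusted p below 0.05. Dots fill the diet effect in dKO-labelled livers (36 genes higher) and the chow contrasts of dKO-labelled livers (34 and 32 genes lower), and are absent where IL-4 knockout and wild type are compared on HFD or in their diet effects.

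More of these genes rose than fell with the high-fat diet in every genotype. In wild type 24 of 40 genes rose and 0 fell (median log2 fold change 0.45), where 9.63% of all tested genes rose and 9.84% fell. In IL-4 knockout livers 19 rose and 0 fell (median 0.50), against 5.14% and 3.94% of all genes. In dKO-labelled livers 36 rose and 0 fell (median 1.02), against 19.4% and 20.5% of all genes. The median over all tested genes lay between -0.02 and 0.00 in these comparisons. At an unadjusted p below 0.05, the numbers that fell were 0 in wild type, 0 in IL-4 knockout and 1 in dKO-labelled livers, and DESeq2 called 0 lower in each. Upper-quartile scaling moved the share of all called genes that were higher in the dKO-labelled diet effect from 48.6% to 36.1% and left 36 members higher. The IL-4 knockout count was 9 without HFD replicate 2 of that genotype, 11 without HFD replicate 1, and 10 and 11 without chow replicates 2 and 3.

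On chow, the genes were low in dKO-labelled livers. Against wild type 34 of 40 fell and 1 rose (median log2 difference -0.72), where 21.9% of all tested genes were lower and 24.4% higher. Against IL-4 knockout 32 fell and 2 rose (median -0.74), where 22.2% were lower and 23.0% higher. Ucp2 was the gene higher in both, and Abcd2 was higher against IL-4 knockout and lower against wild type. Both Abcd2 calls were lost on leaving out single libraries, with an adjusted p of up to 0.117 without IL-4 knockout chow replicate 1 and 0.107 without dKO-labelled chow replicate 1, respectively. Between IL-4 knockout and wild type on chow, 2 genes were lower and 0 higher (median 0.03), where 3.68% and 5.93% of all genes were. The 2 were Abcd2 and Pdk4. At an unadjusted p below 0.05 these were 4 lower and 0 higher, with 3 and 0 by DESeq2. The count was 1 without any 1 of wild-type chow replicates 1 to 3 or of the 4 IL-4 knockout chow libraries, and 4 without dKO-labelled HFD replicate 4. Upper-quartile scaling moved the share of all called genes that were higher on chow from 52.8% to 63.2% against wild type and from 50.8% to 63.7% against IL-4 knockout, with 30 members lower in each. The chow and diet contrasts of dKO-labelled livers share the 4 chow libraries.

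On HFD fewer genes differed between the genotypes. Against wild type 11 genes were lower in dKO-labelled livers and 1 higher (median -0.22), where 11.6% of all tested genes were lower and 12.9% higher. Without dKO-labelled HFD replicate 4 the counts were 5 lower and 2 higher. The total of 12 became 6 without wild-type HFD replicate 1 or 3, and 7 without wild-type HFD replicate 4 or dKO-labelled HFD replicate 2. Against IL-4 knockout 1 gene, Hadh, was lower and 0 were higher (median -0.28), where 1.56% and 0.946% of all genes were. At an unadjusted p below 0.05 these were 13 lower and 0 higher, with 3 and 0 by DESeq2, and the shares above do not apply to these counts. The total was 0 without dKO-labelled HFD replicate 2 or 4 or IL-4 knockout HFD replicate 1 or 2, 2 without dKO-labelled HFD replicate 1 or chow replicate 1, 3 without dKO-labelled HFD replicate 3 and 4 without IL-4 knockout HFD replicate 3. IL-4 knockout and wild type on HFD differed in 0 genes by edgeR (median 0.03), with 1.73% of all genes higher and 1.29% lower. At an unadjusted p below 0.05 there were 3 higher and 2 lower, with 0 by DESeq2 and 0 by limma-voom, and without IL-4 knockout HFD replicate 2 there was 1.

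For most of the genes the diet effect was larger in dKO-labelled livers, which started from a lower level on chow. A difference between diet effects equals the genotype difference on HFD minus that on chow, so it is not separate from the chow contrasts above. Against wild type the medians of these were -0.22 on HFD and -0.72 on chow, and 1 gene was higher on HFD. Tested as a difference between diet effects, 26 genes had a higher diet effect in dKO-labelled than in wild-type livers and 1, Ucp2, a lower one (median difference 0.51), where 12.6% of all tested genes were higher and 12.6% lower. Against the IL-4 knockout diet effect 23 genes were higher and 3 lower (median 0.47), where 12.7% and 11.7% were; the 3 were Abcd2, Pdk4 and Ucp2. Without IL-4 knockout HFD replicate 2 these were 12 and 0. The total of 26 became 16 or 17 without dKO-labelled chow replicate 2 or dKO-labelled HFD replicate 1, 2 or 3. Upper-quartile scaling moved the share of all called genes that were higher from 49.9% to 38.3% against wild type and from 52.0% to 38.0% against IL-4 knockout, with 22 and 15 members higher. The diet effects of IL-4 knockout and wild type differed in 0 genes by edgeR (median 0.05), where 0.0155% of all genes were higher and 0.0310% lower; 0 members had an unadjusted p below 0.05 and DESeq2 called 0.

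**Figure D2:**
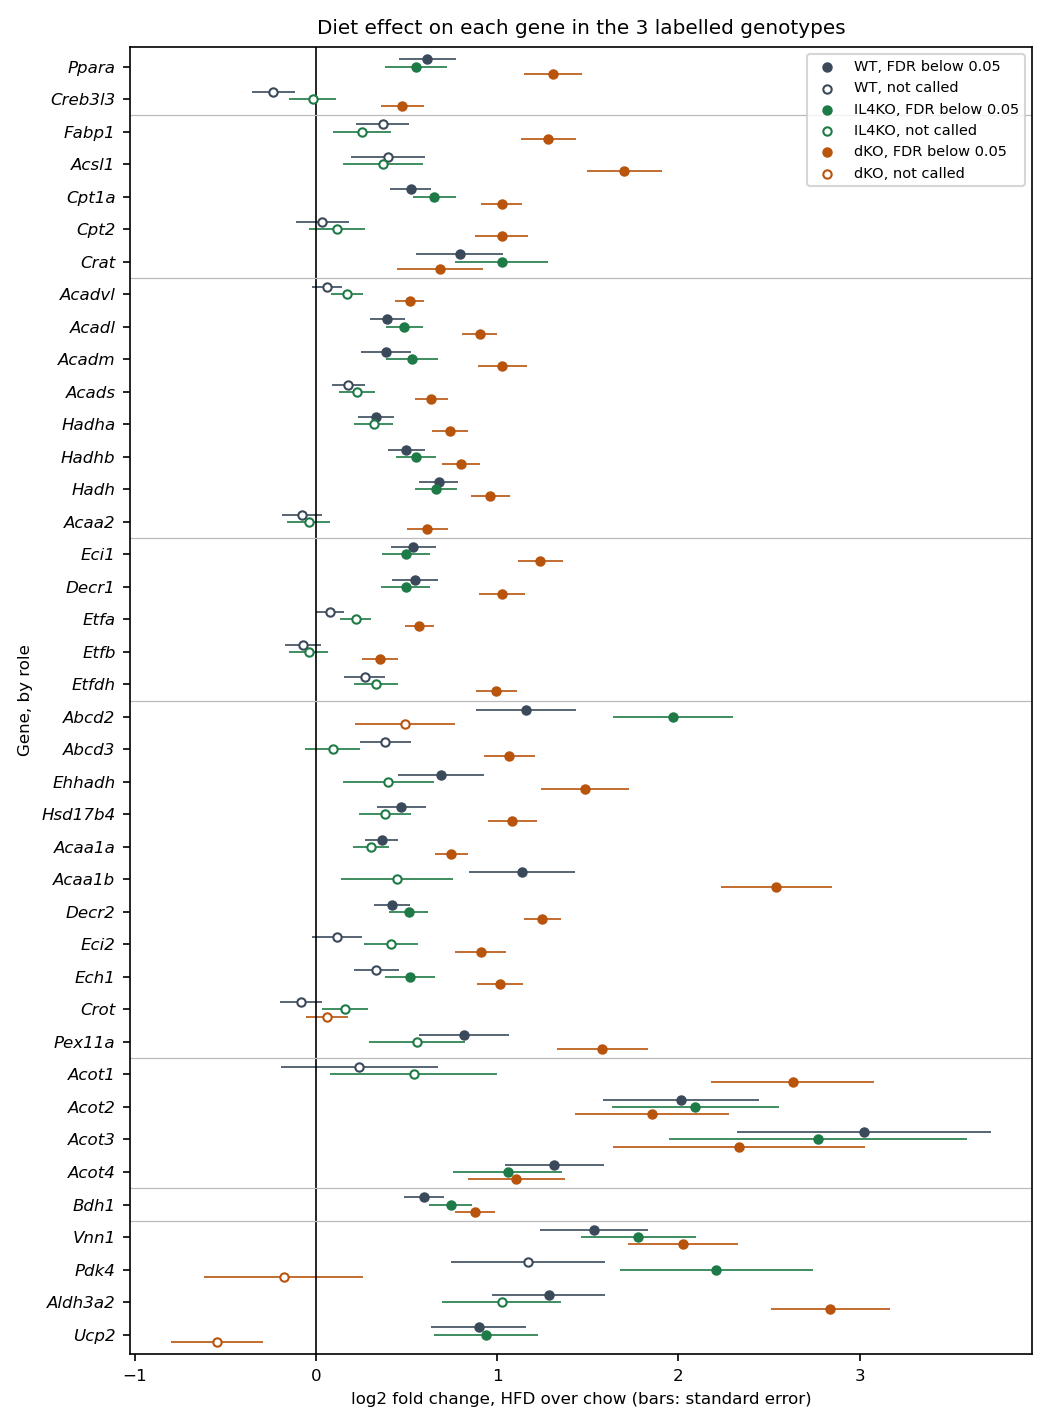
Points give the log2 fold change of HFD over chow for each gene (by role, from top to bottom) in wild type, IL-4 knockout and dKO-labelled livers, with bars of 1 standard error and filled points where the adjusted p was below 0.05. The dKO-labelled point lies to the right of both others for genes such as Acaa1b (2.54) and Fabp1 (1.28), while Pdk4 (-0.18) and Ucp2 (-0.55) lie to the left.

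The libraries were not equally placed within their groups. Averaged over the 40 genes, log2 CPM centred on each gene's mean over the 23 libraries was -0.11 to 0.03 in wild-type chow, -0.19 to 0.08 in IL-4 knockout chow and -1.14 to -0.66 in dKO-labelled chow. On HFD the average was 0.44 to 0.65 in wild type and 0.30 to 0.62 in IL-4 knockout. In dKO-labelled HFD it was 0.32, 0.22 and 0.46 in replicates 1 to 3 and -0.44 in replicate 4. That liver was the lowest of its group for 37 of 40 genes, yet it lay above every dKO-labelled chow library for 31 and within their range for 7. It lay below every wild-type chow library for 31 genes and below every wild-type HFD library for 34. The other 3 livers of the group were all above the dKO-labelled chow range for 35 genes, and all below the wild-type HFD range for 10. Replicate 4 is the dKO-labelled HFD liver with the high neutrophil, macrophage and cholangiocyte sums given above, and Cidea, a lipid droplet gene that fatty hepatocytes also express, was at 0.156 CPM there against 33.1 to 50.5 CPM in the other 3. Cidea stood on the adipocyte list, whose other 5 markers were too low to be tested in these livers (0 to 0.0252 CPM on average). The sum of that list was 0.0896 to 0.467 CPM in dKO-labelled chow, a range that holds the 0.156 CPM of dKO-labelled HFD replicate 4. Within dKO-labelled chow the order was not the same: replicate 3 had the highest neutrophil sum (426 CPM) and the highest average of the 40 genes (-0.66). IL-4 knockout chow replicate 4 was the highest of its group for 37 genes. These ranks and ranges were counted for the 40 genes only, so no share over all tested genes stands beside them. The part of neutrophils, macrophages and cholangiocytes in the low values of dKO-labelled HFD replicate 4 was not tested. Without that library 36 genes rose with the diet in dKO-labelled livers, and with it 36.

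**Figure D3:**
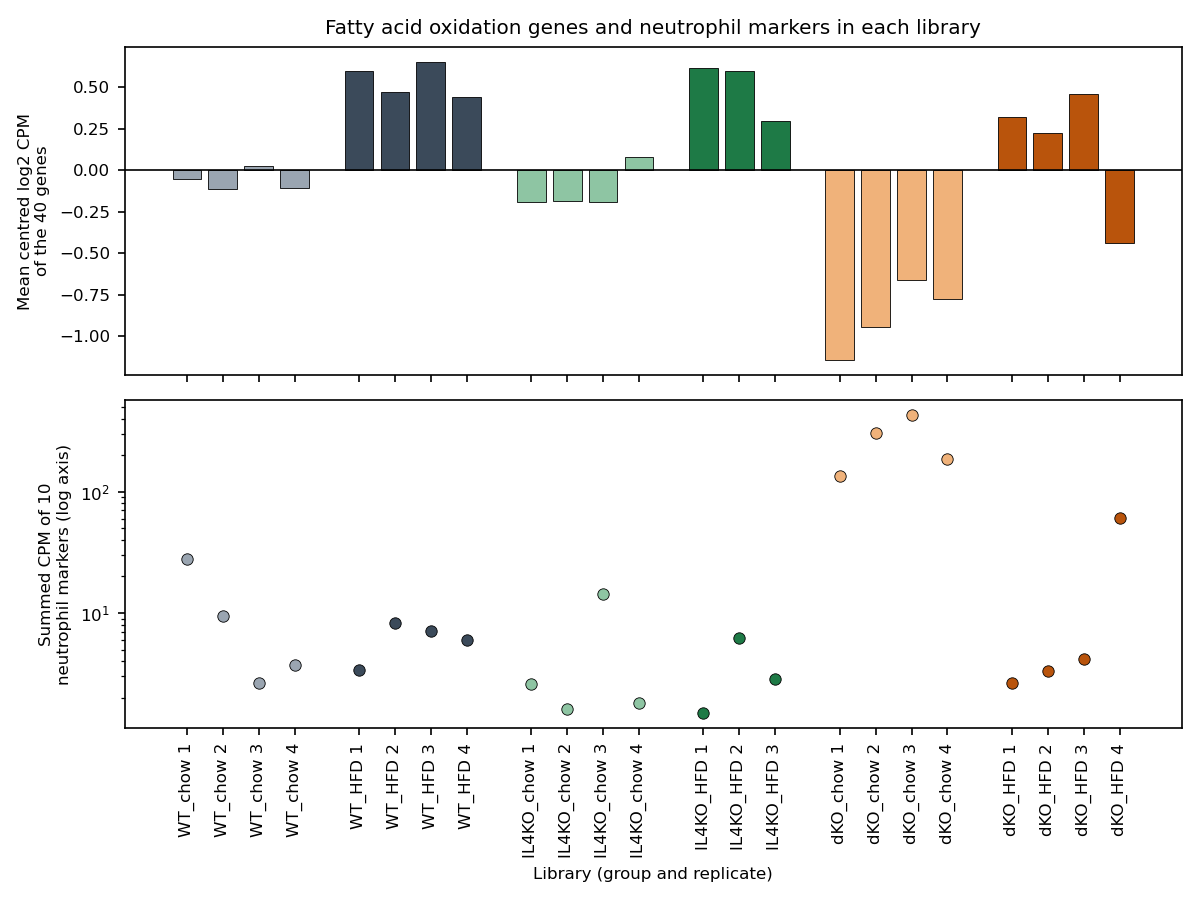
The upper panel gives the mean centred log2 CPM of the 40 genes in each of the 23 libraries, and the lower panel the summed CPM of 10 neutrophil markers on a log axis. The dKO-labelled chow bars reach from -1.14 to -0.66, and dKO-labelled HFD replicate 4 (-0.44) is the low bar of its group and has the high point (60.4 CPM).

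Among the regulators, Ppara rose with the diet in all 3 genotypes and was low in dKO-labelled chow. Ppara on chow was at 323, 349.7, 269.7 and 284 CPM in wild type, 322, 271, 303 and 423 in IL-4 knockout and 152, 201, 246 and 162 in dKO-labelled livers. The HFD values were 460.3, 487, 531 and 399.5 CPM in wild type, 513, 417 and 520.3 in IL-4 knockout and 468, 530, 529.6 and 354 in dKO-labelled livers. The 4 dKO-labelled chow livers were all below every other chow liver, and on HFD the 3 genotypes overlapped. The dKO-labelled diet effect was 1.31 (SE 0.16, adjusted p = 5.13e-06) on the log2 scale, a 2.47-fold rise, against 0.61 (SE 0.16, adjusted p = 0.00913) in wild type and 0.55 (SE 0.17, adjusted p = 0.0436) in IL-4 knockout. The IL-4 knockout call was lost on leaving out any 1 of 9 libraries (adjusted p up to 0.121, without IL-4 knockout chow replicate 2). On chow the dKO-labelled level differed from wild type by -0.69 (SE 0.16, adjusted p = 0.00134), and on HFD by 0.00 (SE 0.16, adjusted p = 0.99). The dKO-labelled diet effect exceeded that of wild type by 0.69 (SE 0.22, adjusted p = 0.0285) and that of IL-4 knockout by 0.75 (SE 0.23, adjusted p = 0.0228). The former call was lost on leaving out any 1 of 6 libraries (adjusted p up to 0.061, without wild-type HFD replicate 4), and the latter was lost on leaving out any 1 of 2 libraries (adjusted p up to 0.0943, without IL-4 knockout HFD replicate 2).

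Creb3l3 encodes a liver transcription factor of the endoplasmic reticulum membrane that works with PPARA in fasting. Its chow values were 311, 380.5, 359 and 304 CPM in wild type, 363, 321, 382 and 421 in IL-4 knockout and 230, 262, 296 and 292 in dKO-labelled livers. On HFD they were 263, 300, 309 and 278 CPM in wild type, 389.7, 306 and 405 in IL-4 knockout and 394, 430.4, 376 and 301 in dKO-labelled livers. Every dKO-labelled chow value was below every wild-type and IL-4 knockout chow value, and on HFD the dKO-labelled values reached above all wild-type values in 3 of 4 livers. Its diet effect was 0.48 (SE 0.12, adjusted p = 0.00307) in dKO-labelled livers and -0.24 (SE 0.12, adjusted p = 0.173) in wild type, and the 2 effects differed by 0.71 (SE 0.17, adjusted p = 0.00608). On HFD it was the 1 gene of the 40 higher in dKO-labelled than in wild-type livers, by 0.39 (SE 0.12, adjusted p = 0.0217), a call lost on leaving out any 1 of 3 libraries (adjusted p up to 0.0826, without dKO-labelled HFD replicate 2). The lower level on chow (-0.33, SE 0.12, adjusted p = 0.028 against wild type) was lost on leaving out any 1 of 4 libraries (adjusted p up to 0.106, without dKO-labelled chow replicate 1), and was not called under upper-quartile scaling (adjusted p = 0.0687).

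**Figure D4:**
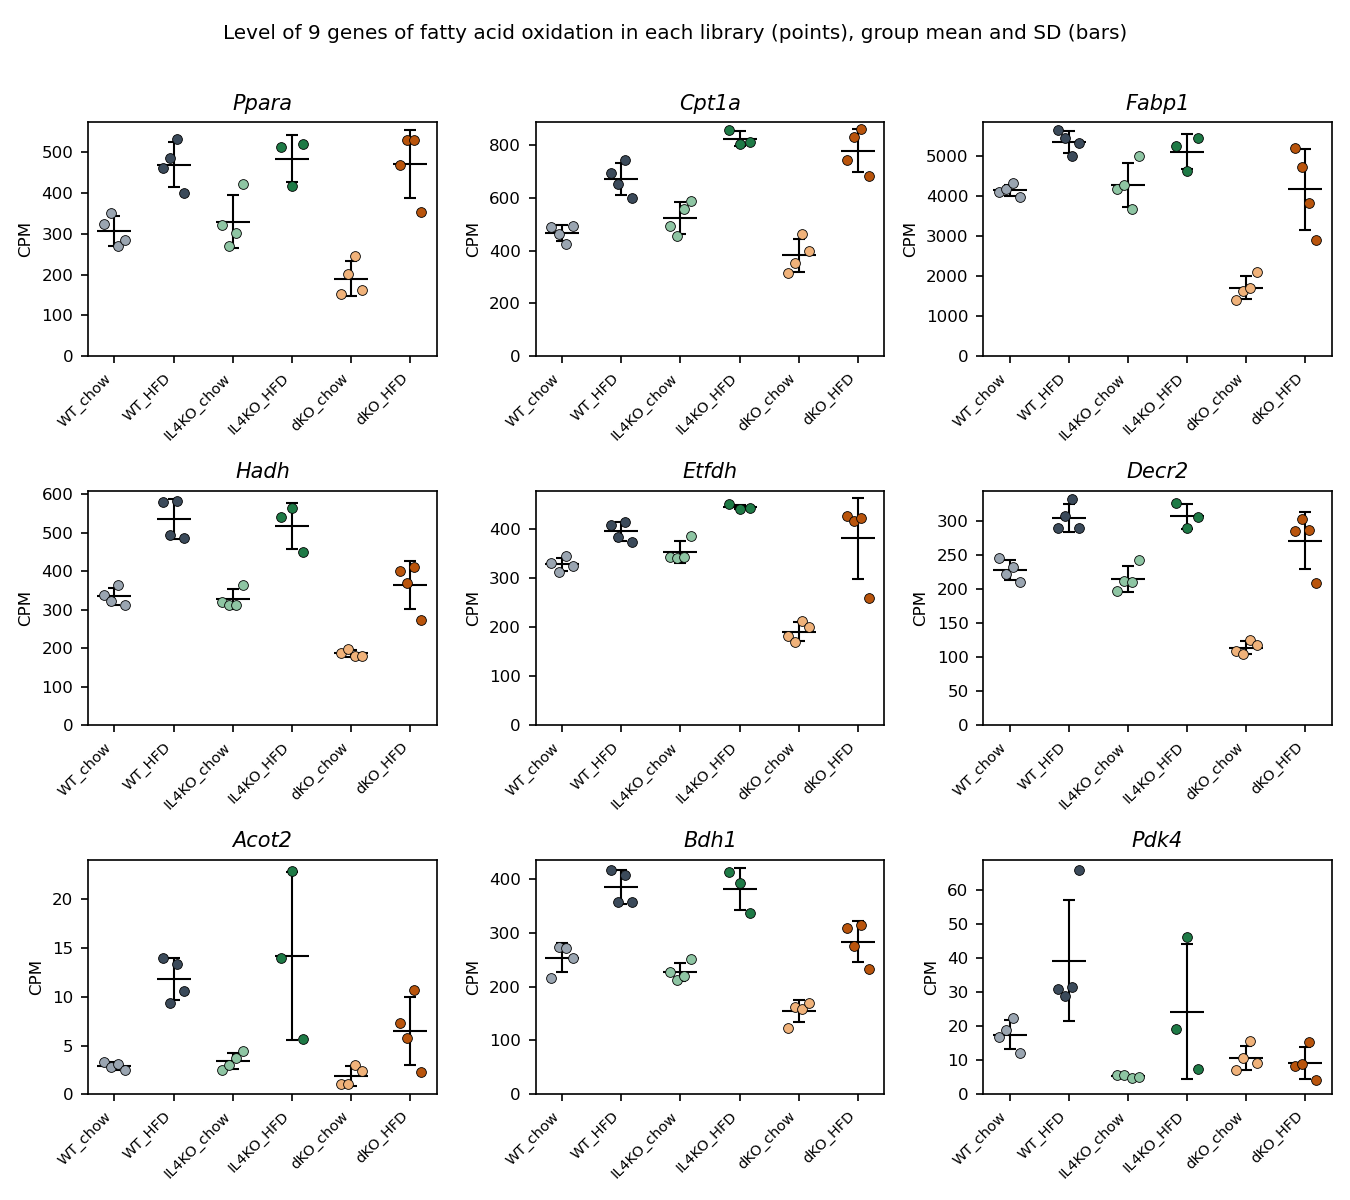
Points are CPM values of single livers for 9 genes in the 6 groups, with the group mean and SD as bars, each panel on its own linear axis from 0. Fabp1 spans 1406 to 2100 CPM in dKO-labelled chow and 3671 to 4988 CPM in the IL-4 knockout chow livers, and the low point of dKO-labelled HFD is replicate 4 in each panel.

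The genes of fatty acid binding, activation and the carnitine shuttle fell in 4 of 5 cases in dKO-labelled chow livers against each other genotype, and all 5 rose with the diet there, against 2 of 5 in wild type and 2 of 5 in IL-4 knockout. Fabp1, the abundant cytosolic fatty acid binding protein of liver, was at 4105, 4168, 4308 and 3978 CPM in wild type, 4179, 4258, 3671 and 4988 in IL-4 knockout and 1406, 1632, 1698 and 2100 in dKO-labelled livers on chow. With HFD its values were 5629, 5448, 4981 and 5307 CPM in wild type, 5233, 4614 and 5453 in IL-4 knockout and 5185, 4731, 3831 and 2887 in dKO-labelled livers. The dKO-labelled chow livers held less than any other liver, and dKO-labelled HFD replicate 4 lay between them and the rest. Fabp1 was 2.42-fold lower in dKO-labelled than in wild-type chow livers (log2 difference -1.28, SE 0.15, adjusted p = 1.73e-06). The diet effect was 1.28 (SE 0.15, adjusted p = 3.18e-06) in dKO-labelled livers and 0.37 (SE 0.15, adjusted p = 0.0828) in wild type, where the chow and HFD ranges did not overlap but the test was not passed. The effects differed by 0.92 (SE 0.21, adjusted p = 0.00495).

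Acsl1 encodes the main long-chain acyl-CoA synthetase of liver. Its chow values were 904, 933, 1219 and 1118 CPM in wild type, 906, 898, 913 and 1077 in IL-4 knockout and 298, 464, 481 and 369 in dKO-labelled livers. On HFD they were 1294, 1369, 1440 and 1400 CPM in wild type, 1404, 1004 and 1269 in IL-4 knockout and 1659, 1399, 1539 and 644 in dKO-labelled livers. Replicates 1 to 3 of dKO-labelled HFD reached the wild-type HFD range or above it, and replicate 4 stayed under every chow liver of the other genotypes. The dKO-labelled diet effect was 1.70 (SE 0.21, adjusted p = 5.90e-06), a 3.25-fold rise, and exceeded the wild-type effect by 1.30 (SE 0.29, adjusted p = 0.00436). Cpt1a, the malonyl-CoA-sensitive carnitine palmitoyltransferase that sets entry into mitochondria, was at 489.9, 463, 425 and 491 CPM in wild type, 491, 454, 557 and 587 in IL-4 knockout and 315, 353, 462 and 398 in dKO-labelled livers on chow. On HFD Cpt1a was at 692, 652, 742 and 599 CPM in wild type, 854, 801 and 810.1 in IL-4 knockout and 741, 828, 859 and 683 in dKO-labelled livers. HFD and chow ranges were apart in each genotype, while the chow ranges of the genotypes overlapped. Its diet effects were 0.52 (SE 0.11, adjusted p = 0.00263) in wild type, 0.65 (SE 0.12, adjusted p = 0.00226) in IL-4 knockout and 1.02 (SE 0.11, adjusted p = 2.06e-06) in dKO-labelled livers. The chow difference from wild type, -0.29 (SE 0.11, adjusted p = 0.0374), was lost on leaving out any 1 of 4 libraries (adjusted p up to 0.151, without dKO-labelled chow replicate 1), and was not called under upper-quartile scaling (adjusted p = 0.104).

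The other 2 shuttle enzymes are Cpt2 and Crat. Cpt2, which hands the acyl group back to coenzyme A inside the mitochondrion, averaged 99 ± 11.3 (SD, n = 4) CPM in dKO-labelled chow and 189.9 ± 19.7 (SD, n = 4) in wild-type chow. It rose with the diet in dKO-labelled livers (1.03, SE 0.15, adjusted p = 2.22e-05) and had a log2 diet effect of 0.04 (SE 0.14, adjusted p = 0.893) in wild type. Crat, the carnitine acetyltransferase, rose with the diet in all 3 genotypes, by 0.79 in wild type, 1.02 in IL-4 knockout and 0.69 in dKO-labelled livers on the log2 scale, and each of these calls rested on single libraries. The highest adjusted p was 0.0823 without wild-type chow replicate 4, 0.154 without IL-4 knockout HFD replicate 2 and, for dKO-labelled livers, 0.116 without dKO-labelled HFD replicate 3. In wild type the call was lost on leaving out any 1 of 3 libraries (adjusted p up to 0.0823, without wild-type chow replicate 4), in IL-4 knockout lost on leaving out any 1 of 3 libraries (adjusted p up to 0.154, without IL-4 knockout HFD replicate 2) and in dKO-labelled livers lost on leaving out any 1 of 5 libraries (adjusted p up to 0.116, without dKO-labelled HFD replicate 3). Its chow level in dKO-labelled livers differed from wild type by -0.25 (SE 0.24, adjusted p = 0.412).

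All 8 enzymes of the mitochondrial cycle fell in dKO-labelled chow livers against wild type, by 0.49 (Acadvl) to 0.84 (Hadh) on the log2 scale, and all 8 fell against IL-4 knockout. All 8 rose with the diet in dKO-labelled livers, against 5 in wild type and 4 in IL-4 knockout. In wild type the rises of Acadm and Hadha were lost on leaving out any 1 of 18 and 3 libraries. That of Acadm in IL-4 knockout was lost on leaving out any 1 of 5. Hadh, the short-chain hydroxyacyl-CoA dehydrogenase, had the smallest p of the 8 enzymes. It was at 339, 323, 365 and 313 CPM in wild type, 322, 313, 312 and 365 in IL-4 knockout and 188, 198, 181 and 181 in dKO-labelled livers on chow. With HFD it was at 579, 494, 583 and 486 CPM in wild type, 542, 564 and 451 in IL-4 knockout and 400.2, 369, 412 and 274 in dKO-labelled livers. The dKO-labelled values were the lowest on both diets, with no overlap with either genotype. Hadh rose with the diet by 0.68 (SE 0.11, adjusted p = 2.48e-04) in wild type, 0.66 (SE 0.12, adjusted p = 0.0017) in IL-4 knockout and 0.96 (SE 0.11, adjusted p = 2.90e-06) in dKO-labelled livers, and these effects did not differ past the threshold (dKO-labelled minus wild type 0.28, SE 0.15, adjusted p = 0.175). On HFD Hadh was lower in dKO-labelled livers too, with a log2 difference of -0.56 (SE 0.11, adjusted p = 0.00102) from wild type and of -0.51 (SE 0.12, adjusted p = 0.0234) from IL-4 knockout. The latter call was lost on leaving out any 1 of 4 libraries (adjusted p up to 0.16, without IL-4 knockout HFD replicate 2).

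Acadl, the long-chain acyl-CoA dehydrogenase, was at 219.9, 243, 249.6 and 248 CPM in wild type, 232, 247, 234 and 266 in IL-4 knockout and 138, 143, 170.5 and 156 in dKO-labelled livers on chow. Its HFD values were 322, 306, 332 and 303 CPM in wild type, 352, 344 and 334 in IL-4 knockout and 296, 303, 319.8 and 216 in dKO-labelled livers. On chow the dKO-labelled livers lay under the others, and on HFD replicate 4 was below every other HFD liver while the other 3 lay near the wild-type range. Its diet effect was 0.90 (SE 0.10, adjusted p = 1.60e-06) in dKO-labelled livers and 0.39 (SE 0.10, adjusted p = 0.00671) in wild type, with a difference of 0.51 (SE 0.14, adjusted p = 0.0117). Hadhb, the thiolase subunit of the trifunctional protein, was at 73.5, 74.4, 76.5 and 74 CPM in wild type, 68.5, 66.8, 69.8 and 73 in IL-4 knockout and 42.3, 45.6, 51.2 and 60.2 in dKO-labelled livers on chow. On HFD Hadhb was at 108, 95.6, 109 and 109 CPM in wild type, 104, 115 and 87.2 in IL-4 knockout and 96.6, 90.1, 91 and 69.5 in dKO-labelled livers. It fell in dKO-labelled chow livers by 0.58 (SE 0.10, adjusted p = 1.20e-04) on the log2 scale, and its HFD difference of -0.28 (SE 0.10, adjusted p = 0.0485) was lost on leaving out any 1 of 17 libraries (adjusted p up to 0.16, without dKO-labelled HFD replicate 4). Hadha, its partner subunit, lies head to head with Hadhb on chromosome 5, with 272 bases between the RefSeq starts and 85 bases between the GENCODE genes. Hadha fell by 0.55 in the same chow contrast and rose by 0.74 with the diet in dKO-labelled livers, where Hadhb rose by 0.80.

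The acyl-CoA dehydrogenases for shorter and longer chains followed. Acadm, for medium chains, averaged 201 ± 15.3 (SD, n = 4) CPM in dKO-labelled chow, 325 ± 30.3 (SD, n = 4) in wild-type chow and 409.5 ± 102 (SD, n = 4) in dKO-labelled HFD. Acads, for short chains, and Acadvl, for very long chains, did not pass the test for the diet in wild type (0.18, SE 0.09, adjusted p = 0.175 and 0.06, SE 0.08, adjusted p = 0.653) and rose in dKO-labelled livers by 0.64 and 0.52. Acaa2, the mitochondrial thiolase, averaged 941 ± 81 (SD, n = 4) CPM in wild-type chow and 893 ± 56.6 (SD, n = 4) in wild-type HFD, against 582 ± 57.6 (SD, n = 4) and 891 ± 131 (SD, n = 4) in dKO-labelled livers. The dKO-labelled diet effect exceeded that of wild type for 6 of the 8 genes and that of IL-4 knockout for 5. Hadh and Hadhb were in neither count. Against IL-4 knockout the calls of Acadl, Acadvl, Acads and Hadha were lost on leaving out single libraries (adjusted p up to 0.125). They were also lost under upper-quartile scaling (adjusted p of 0.0823 to 0.0987). The Hadha call against wild type was lost in both ways too (adjusted p up to 0.083 and 0.0745).

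The 5 auxiliary and electron transfer genes likewise fell in dKO-labelled chow livers against both genotypes and rose there with the diet, and the diet effect was called larger in dKO-labelled than in wild-type livers for all 5. For Etfb that call was lost on leaving out any 1 of 6 libraries (adjusted p up to 0.067, without dKO-labelled chow replicate 1), and its fall against IL-4 knockout was lost on leaving out any 1 of 2 libraries (adjusted p up to 0.0753, without dKO-labelled chow replicate 1). Eci1, an enoyl-CoA isomerase for unsaturated fatty acids, was at 113, 103, 118 and 109 CPM in wild type, 117, 112, 106 and 129 in IL-4 knockout and 52.2, 53.5, 55.4 and 54.4 in dKO-labelled livers on chow. Its values on HFD were 174, 152, 165 and 153 CPM in wild type, 181, 166 and 144 in IL-4 knockout and 150.1, 137, 139.7 and 81.5 in dKO-labelled livers. The dKO-labelled chow values were close together and under the rest. Eci1 was 2.06-fold lower than in wild type on chow (-1.04, SE 0.12, adjusted p = 2.17e-06 on the log2 scale), its diet effects were 1.24 (SE 0.12, adjusted p = 8.35e-07) and 0.54 (SE 0.12, adjusted p = 0.00432) in dKO-labelled and wild-type livers, and these differed by 0.70 (SE 0.17, adjusted p = 0.00795). The lower HFD level (-0.34, SE 0.12, adjusted p = 0.0461) was lost on leaving out any 1 of 17 libraries (adjusted p up to 0.117, without wild-type HFD replicate 1).

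Decr1, the mitochondrial dienoyl-CoA reductase, was at 206, 202, 214 and 197 CPM in wild type, 195, 191, 195 and 245 in IL-4 knockout and 102, 98.1, 126 and 132 in dKO-labelled livers on chow. On HFD Decr1 was at 299, 305, 297 and 295 CPM in wild type, 294, 311 and 269 in IL-4 knockout and 274, 253, 247 and 161 in dKO-labelled livers. Both wild type and IL-4 knockout lay above dKO-labelled livers on chow, and on HFD the dKO-labelled values all lay under the wild-type values, replicate 4 furthest. The diet effect was 1.03 (SE 0.13, adjusted p = 4.97e-06) in dKO-labelled livers and 0.55 (SE 0.12, adjusted p = 0.00413) in wild type. The difference of these effects, 0.48 (SE 0.18, adjusted p = 0.0485), was lost on leaving out any 1 of 15 libraries (adjusted p up to 0.11, without dKO-labelled HFD replicate 1), and the HFD difference from wild type, -0.35 (SE 0.12, adjusted p = 0.0407), was lost on leaving out any 1 of 5 libraries (adjusted p up to 0.124, without dKO-labelled HFD replicate 4). Etfdh, which passes the electrons on to ubiquinone, was at 331, 311, 344 and 324 CPM in wild type, 343, 341, 342 and 386 in IL-4 knockout and 181, 169.7, 213 and 199 in dKO-labelled livers on chow. Its HFD values were 407, 384, 414 and 374 CPM in wild type, 450.1, 442 and 442 in IL-4 knockout and 427, 415, 423 and 258 in dKO-labelled livers. The wild-type ranges on the 2 diets did not overlap, but the wild-type effect of 0.27 (SE 0.11, adjusted p = 0.102) did not pass the test, whereas the dKO-labelled effect was 1.0 (SE 0.12, adjusted p = 3.04e-06) and exceeded it by 0.73 (SE 0.16, adjusted p = 0.00435). Etfa and Etfb, the subunits of the electron transfer flavoprotein, fell on chow in dKO-labelled livers by 0.69 and 0.38 against wild type, Etfb from 257 ± 12.7 (SD, n = 4) to 198 ± 34.3 (SD, n = 4) CPM.

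Of the 11 peroxisomal genes, all 11 fell in dKO-labelled chow livers against wild type, and 9 fell and 1, Abcd2, rose against IL-4 knockout. With the diet 9 rose in dKO-labelled livers, 7 in wild type and 3 in IL-4 knockout. The wild-type rise of Ehhadh was lost on leaving out any 1 of 14 libraries (adjusted p up to 0.131, without wild-type chow replicate 2). In wild type the rises of Pex11a and Hsd17b4 were lost on leaving out any 1 of 4 and 2 libraries. That of Ech1 in IL-4 knockout was lost on leaving out any 1 of 4. Acaa1b, a peroxisomal thiolase, had the largest chow difference of the 40 genes. It was at 1382, 756, 1451 and 1058 CPM in wild type, 1180, 1185, 852 and 1600 in IL-4 knockout and 144, 166, 172 and 161 in dKO-labelled livers on chow. HFD livers were at 2943, 2233, 2649 and 2386 CPM in wild type, 1802, 1927 and 1196 in IL-4 knockout and 1324, 909, 1163 and 346 in dKO-labelled livers. The dKO-labelled chow livers were far under every other liver, and on HFD the dKO-labelled livers stayed under every wild-type liver. Acaa1b was 7.23-fold lower than in wild-type chow livers (-2.85, SE 0.31, adjusted p = 1.51e-06), rose 5.82-fold with the diet (2.54, SE 0.31, adjusted p = 7.61e-06) and rose 2.2-fold in wild type (1.14, SE 0.29, adjusted p = 0.0102). Its log2 difference from wild type on HFD was -1.45 (SE 0.29, adjusted p = 0.00173). In the transcript annotation 35.5% of the 50-base words of Acaa1b also occur in Acaa1a, and 26.7% of those of Acaa1a in Acaa1b, so the split of reads between them is uncertain. Acaa1a averaged 127 ± 11.1 (SD, n = 4) CPM in dKO-labelled chow and 177 ± 14.5 (SD, n = 4) in wild-type chow (-0.48, SE 0.09, adjusted p = 2.53e-04).

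Decr2, the peroxisomal dienoyl-CoA reductase, had the smallest p of the 40 over the 6 groups. On chow it was at 246, 222, 233 and 210.5 CPM in wild type, 197, 212, 210.1 and 242 in IL-4 knockout and 109, 104, 125 and 118 in dKO-labelled livers. The HFD values were 289.7, 307, 333 and 289.8 CPM in wild type, 326, 289.5 and 305 in IL-4 knockout and 285, 303, 287 and 209.6 in dKO-labelled livers. The dKO-labelled chow livers were below all others, and of the dKO-labelled HFD livers replicate 4 was below every wild-type HFD liver while the other 3 were close to them. The diet effect was 0.42 (SE 0.10, adjusted p = 0.00498) in wild type, 0.51 (SE 0.11, adjusted p = 0.00482) in IL-4 knockout and 1.25 (SE 0.10, adjusted p = 1.71e-07) in dKO-labelled livers, and the dKO-labelled effect exceeded the others by 0.83 (SE 0.14, adjusted p = 0.00104) and 0.74 (SE 0.15, adjusted p = 0.00204). Ech1, a dienoyl-CoA isomerase, was at 301, 348, 394 and 334 CPM in wild type, 337, 289.6, 311 and 364 in IL-4 knockout and 166, 166, 194 and 201 in dKO-labelled livers on chow. On HFD Ech1 was at 465, 437, 439.7 and 395 CPM in wild type, 499, 463 and 437 in IL-4 knockout and 426, 379.9, 411 and 253 in dKO-labelled livers. It rose 2.02-fold with the diet in dKO-labelled livers (1.02, SE 0.13, adjusted p = 6.40e-06), where on chow it was below every other liver.

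Among the other peroxisomal genes, Ehhadh, the bifunctional enzyme often used as a PPARA marker, averaged 298 ± 68.3 (SD, n = 4) CPM in wild-type chow, 104 ± 18.4 (SD, n = 4) in dKO-labelled chow and 291 ± 94.2 (SD, n = 4) in dKO-labelled HFD. Its fall on chow was -1.52 (SE 0.24, adjusted p = 5.73e-05) and it was lower on HFD too (-0.72, SE 0.24, adjusted p = 0.0309), the latter lost on leaving out any 1 of 4 libraries (adjusted p up to 0.0896, without wild-type HFD replicate 1). Hsd17b4, the other bifunctional enzyme, fell on chow by 0.75, Eci2, a peroxisomal isomerase, by 0.56, Pex11a, a factor of peroxisome division, by 1.01, and Abcd3, a transporter of the peroxisomal membrane, by 1.11. Crot, which did not pass the test over the 6 groups, averaged 741 ± 41.1 (SD, n = 4) CPM in wild-type chow and 603 ± 106 (SD, n = 4) in dKO-labelled chow, a difference of -0.30 (SE 0.12, adjusted p = 0.0399) that was lost on leaving out any 1 of 4 libraries (adjusted p up to 0.145, without dKO-labelled chow replicate 2).

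Abcd2, a peroxisomal transporter of very-long-chain acyl-CoA related to Abcd3, departed from this order. It ranged over 23.6 to 34.3 CPM in wild-type chow, 6.21 to 14.6 in IL-4 knockout chow and 10.1 to 23.3 in dKO-labelled chow. On chow both knockouts were lower than wild type, with log2 differences of -1.60 (SE 0.31, adjusted p = 0.00312) in IL-4 knockout and -0.75 (SE 0.28, adjusted p = 0.035) in dKO-labelled livers, the latter lost on leaving out any 1 of 4 libraries (adjusted p up to 0.107, without dKO-labelled chow replicate 1). With the diet Abcd2 rose by 1.16 (SE 0.28, adjusted p = 0.00679) in wild type and 1.97 (SE 0.33, adjusted p = 0.00178) in IL-4 knockout, while its dKO-labelled effect was 0.49 (SE 0.28, adjusted p = 0.167). The dKO-labelled effect minus that of IL-4 knockout was -1.48 (SE 0.43, adjusted p = 0.0193), a call lost without IL-4 knockout HFD replicate 2 (adjusted p = 0.0864). On HFD the dKO-labelled level was lower than that of wild type, with a log2 difference of -1.42 (SE 0.27, adjusted p = 0.00135).

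The acyl-CoA thioesterases Acot1 to Acot4, which release free fatty acids from coenzyme A, lie together on chromosome 12 between positions 83987861 and 84060402 (GRCm38). Acot3 and Acot2 had the largest diet effects of the 40 genes in wild type. Acot2, the mitochondrial form, was at 3.33, 2.77, 3.08 and 2.44 CPM in wild type, 2.5, 2.98, 3.72 and 4.46 in IL-4 knockout and 1.05, 1.05, 3.03 and 2.38 in dKO-labelled livers on chow. With HFD it was at 14, 9.39, 13.3 and 10.6 CPM in wild type, 13.9, 22.9 and 5.67 in IL-4 knockout and 7.3, 5.73, 10.7 and 2.27 in dKO-labelled livers. HFD livers were above all chow livers of their genotype in wild type and IL-4 knockout, and dKO-labelled HFD replicate 4 was within its chow range. Acot2 rose 4.04-fold in wild type (2.02, SE 0.43, adjusted p = 0.00316), 4.27-fold in IL-4 knockout (2.09, SE 0.46, adjusted p = 0.00853) and 3.62-fold in dKO-labelled livers (1.86, SE 0.42, adjusted p = 0.00197). The IL-4 knockout call was lost without IL-4 knockout HFD replicate 2 (adjusted p = 0.112). Because Acot1 and Acot2 share 23.5% and 24.5% of their 50-base words, counts between them are uncertain.

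Acot4, a peroxisomal thioesterase, was at 17, 17.2, 14.2 and 16.2 CPM in wild type, 15.8, 14.2, 11.9 and 18.5 in IL-4 knockout and 7.9, 12.5, 12.3 and 9.99 in dKO-labelled livers on chow. Its values on HFD were 42, 37.4, 52.2 and 30.4 CPM in wild type, 38, 35 and 20.9 in IL-4 knockout and 19.6, 18.4, 39.6 and 13.5 in dKO-labelled livers. The rise was 1.32 (SE 0.27, adjusted p = 0.00262) in wild type, 1.06 (SE 0.30, adjusted p = 0.0336) in IL-4 knockout and 1.10 (SE 0.27, adjusted p = 0.00311) in dKO-labelled livers. The IL-4 knockout call was lost on leaving out any 1 of 5 libraries (adjusted p up to 0.181, without IL-4 knockout HFD replicate 2), and the lower dKO-labelled level on HFD, -0.81 (SE 0.26, adjusted p = 0.0296), was lost on leaving out any 1 of 5 libraries (adjusted p up to 0.0887, without dKO-labelled HFD replicate 2). Acot3, also peroxisomal and the lowest of the set per kilobase, was at 3.15, 2.69, 2.81 and 4.04 CPM in wild type, 1.3, 2.26, 2.29 and 2.92 in IL-4 knockout and 0.287, 2.69, 2.92 and 1.31 in dKO-labelled livers on chow. On HFD Acot3 was at 32.4, 18.9, 37.6 and 15.1 CPM in wild type, 21.5, 17.9 and 4.05 in IL-4 knockout and 3.54, 4.45, 25.1 and 2.73 in dKO-labelled livers. Single livers set its spread: dKO-labelled HFD replicate 3 was far above the other 3, and IL-4 knockout HFD replicate 3 was far below the other 2. It rose 8.13-fold in wild type (3.02, SE 0.70, adjusted p = 0.00624), and its rises of 2.77 (SE 0.82, adjusted p = 0.0432) in IL-4 knockout and 2.33 (SE 0.69, adjusted p = 0.0127) in dKO-labelled livers were lost on leaving out any 1 of 11 libraries (adjusted p up to 0.184, without IL-4 knockout HFD replicate 2) and lost without dKO-labelled HFD replicate 3 (adjusted p = 0.179).

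Acot1, the cytosolic form, was not called for the diet in wild type. It ranged over 19.1 to 39.1 CPM in wild-type chow, 19.4 to 40.1 in wild-type HFD, 5.31 to 13 in dKO-labelled chow and 12.7 to 69.4 in dKO-labelled HFD. Of the 4 thioesterases it was the 1 that fell in dKO-labelled chow livers (-1.60, SE 0.46, adjusted p = 0.00809 against wild type). Its diet effect was 2.63 (SE 0.45, adjusted p = 2.48e-04) there and 0.24 (SE 0.43, adjusted p = 0.755) in wild type, and these differed by 2.39 (SE 0.62, adjusted p = 0.0119). The other 3 had differences of -0.16 (Acot2), -0.69 (Acot3) and -0.21 (Acot4) in that test, with adjusted p of 0.874, 0.643 and 0.716.

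The ketogenic gene of the set, Bdh1, encodes the mitochondrial hydroxybutyrate dehydrogenase that interconverts the ketone bodies acetoacetate and beta-hydroxybutyrate. It was at 216, 274, 272 and 253 CPM in wild type, 226, 213, 219.6 and 252 in IL-4 knockout and 124, 163, 159 and 170.3 in dKO-labelled livers on chow. HFD livers were at 416, 358, 407 and 356 CPM in wild type, 413, 393 and 337 in IL-4 knockout and 309.6, 276, 315 and 232 in dKO-labelled livers. In each genotype all HFD livers were above all chow livers, and on both diets the dKO-labelled livers were below the others. Bdh1 rose with the diet by 0.60 (SE 0.11, adjusted p = 9.48e-04) in wild type, 0.74 (SE 0.12, adjusted p = 8.54e-04) in IL-4 knockout and 0.88 (SE 0.11, adjusted p = 7.81e-06) in dKO-labelled livers. Its log2 difference between dKO-labelled and wild-type livers was -0.72 (SE 0.11, adjusted p = 3.10e-05) on chow and -0.44 (SE 0.11, adjusted p = 0.00664) on HFD, and that between their diet effects was 0.28 (SE 0.16, adjusted p = 0.191). Acat1, the acetoacetyl-CoA thiolase, fell on chow by 1.16 and rose with the diet by 1.38 in dKO-labelled livers. Of 6 further genes of ketone body enzymes and carriers, 4 fell and 2 rose in dKO-labelled chow livers against wild type, and 4 rose and 2 fell with the diet there. The 2 that went the other way, named after their values were seen, were Oxct1, which lets tissues use ketone bodies, and Slc16a1, a monocarboxylate carrier. Oxct1 averaged 4.56 ± 1.02 (SD, n = 4) CPM in wild-type chow and 9.23 ± 1.29 (SD, n = 4) in dKO-labelled chow (1.02, SE 0.17, adjusted p = 6.50e-05), with a diet effect of -0.66 (SE 0.16, adjusted p = 0.00255) in dKO-labelled livers. Slc16a1 averaged 60.1 ± 8.41 (SD, n = 4) and 79.9 ± 12.4 (SD, n = 4) CPM in these groups (0.41, SE 0.13, adjusted p = 0.0148), with a diet effect of -0.79 (SE 0.13, adjusted p = 1.23e-04). Its rise on chow was lost on leaving out any 1 of 2 libraries (adjusted p up to 0.0802, without dKO-labelled chow replicate 3).

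The other 4 genes did not move as a block. Aldh3a2, the fatty aldehyde dehydrogenase, was at 369, 284, 481 and 418 CPM in wild type, 478, 464, 448 and 549 in IL-4 knockout and 81.9, 92.7, 103 and 76.9 in dKO-labelled livers on chow. The HFD values were 967, 793, 1137 and 882 CPM in wild type, 1008, 1132 and 819.9 in IL-4 knockout and 903, 694, 768 and 171 in dKO-labelled livers. It was lowest in dKO-labelled chow without overlap, and dKO-labelled HFD replicate 4 lay between that group and the wild-type chow livers. Aldh3a2 was 4.38-fold lower than in wild-type chow livers (-2.13, SE 0.32, adjusted p = 3.84e-05) and rose 7.15-fold with the diet (2.84, SE 0.33, adjusted p = 6.02e-06), against 2.44-fold in wild type (1.28, SE 0.31, adjusted p = 0.00726). Vnn1, a pantetheinase, was at 53.5, 50.3, 74.3 and 62.1 CPM in wild type, 45.3, 53.2, 50.5 and 79.8 in IL-4 knockout and 26.9, 23.3, 44.6 and 39.4 in dKO-labelled livers on chow. On HFD Vnn1 was at 184, 166, 199 and 146 CPM in wild type, 206, 187 and 193 in IL-4 knockout and 173, 129.9, 189 and 52.1 in dKO-labelled livers. It rose by 1.53 (SE 0.30, adjusted p = 0.00183) in wild type, 1.78 (SE 0.32, adjusted p = 0.00278) in IL-4 knockout and 2.02 (SE 0.30, adjusted p = 6.83e-05) in dKO-labelled livers, and the dKO-labelled effect minus the wild-type effect was 0.49 (SE 0.41, adjusted p = 0.401). Its lower chow level in dKO-labelled livers, -0.84 (SE 0.30, adjusted p = 0.0266) against wild type and -0.77 (SE 0.30, adjusted p = 0.0429) against IL-4 knockout, was lost on leaving out any 1 of 3 libraries (adjusted p up to 0.08, without dKO-labelled chow replicate 2) and lost on leaving out any 1 of 8 libraries (adjusted p up to 0.132, without IL-4 knockout chow replicate 4).

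Pdk4, the pyruvate dehydrogenase kinase that spares glucose when fat is burned, was at 16.7, 18.8, 22.5 and 12 CPM in wild type, 5.57, 5.6, 4.86 and 5.01 in IL-4 knockout and 7.13, 10.8, 15.6 and 9.24 in dKO-labelled livers on chow. With HFD it was at 30.9, 28.8, 31.4 and 65.7 CPM in wild type, 19.3, 46 and 7.42 in IL-4 knockout and 8.43, 8.86, 15.4 and 4.06 in dKO-labelled livers. IL-4 knockout chow livers were under every wild-type chow liver, wild-type HFD replicate 4 was far above its group, and the ranges of dKO-labelled livers on the 2 diets overlapped. The diet effect was 1.17 (SE 0.42, adjusted p = 0.0612) in wild type, 2.21 (SE 0.53, adjusted p = 0.016) in IL-4 knockout and -0.18 (SE 0.44, adjusted p = 0.78) in dKO-labelled livers. The IL-4 knockout effect was lost without IL-4 knockout HFD replicate 2 (adjusted p = 0.225). Pdk4 was lower in IL-4 knockout than in wild-type chow livers, with a log2 difference of -1.73 (SE 0.51, adjusted p = 0.0395), a call lost on leaving out any 1 of 7 libraries (adjusted p up to 0.0923, without wild-type chow replicate 3). On HFD it was lower in dKO-labelled than in wild-type livers, with a difference of -2.07 (SE 0.43, adjusted p = 0.00259). Ucp2, an uncoupling protein of the inner mitochondrial membrane, was the 1 gene that rose against wild type on chow. It ranged over 51.1 to 77.2 CPM in dKO-labelled chow and 22.6 to 41.3 in wild-type chow, a rise of 1.09 (SE 0.26, adjusted p = 0.00233). Ucp2 rose with the diet in wild type (0.90, SE 0.26, adjusted p = 0.0224), a call lost on leaving out any 1 of 4 libraries (adjusted p up to 0.0748, without wild-type chow replicate 3), and differed by -0.55 (SE 0.25, adjusted p = 0.0938) in dKO-labelled livers, and these effects differed by -1.44 (SE 0.36, adjusted p = 0.0101). Macrophages and neutrophils are known to carry Ucp2, and their marker sums were highest in dKO-labelled chow. The highest Ucp2 value, 89.4 CPM, was in IL-4 knockout HFD replicate 2, with sums of 6.26 CPM for neutrophil and 533 CPM for macrophage markers. In dKO-labelled HFD replicate 4, with a neutrophil sum of 60.4 CPM, Ucp2 was at 50.1 CPM against 33.6 to 50.4 CPM in the group's other livers. The part of these cells in the level of Ucp2 was not tested. Ucp2 also rose with the diet in IL-4 knockout, a call lost on leaving out any 1 of 15 libraries. Without IL-4 knockout HFD replicate 2 its adjusted p was 0.528.

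Levels were compared between genes only per kilobase of exon, in wild-type chow. Fabp1 led with 7486 ± 248 CPM per kilobase (SD, n = 4), and Acaa1b (688 ± 189.6) and Acaa2 (620.5 ± 53.5) followed, apart by less than the spread of Acaa1b. Etfb (288 ± 14.2), Ech1 (272 ± 30.6), Acsl1 (250.1 ± 36.1) and Crot (247 ± 13.7) came next, each within an SD of a neighbour. Ppara itself stood at 86.7 ± 10.4 CPM per kilobase, at rank 24 of 40. The lowest were Acot4 (2.6 ± 0.22), Acot2 (1.32 ± 0.175) and Acot3 (0.922 ± 0.178). The 40 genes together took 0.750 to 0.938% of all counts in dKO-labelled chow libraries and 1.19 to 1.98% in dKO-labelled HFD. They took 1.45 to 1.75% in the chow libraries of the other genotypes and 1.90 to 2.27% in their HFD libraries.

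A further 70 genes of the pathway were listed by role, with earlier results of these data known, so their counts are not an independent check. In dKO-labelled chow livers 45 of 70 were lower and 4 higher than in wild type, and 46 lower and 6 higher than in IL-4 knockout, beside the shares of all tested genes given above (21.9% and 24.4%, and 22.2% and 23.0%). With the diet 45 rose and 5 fell in dKO-labelled livers, where 19.4% and 20.5% of all genes did, and 15 rose and 4 fell in wild type, where 9.63% and 9.84% did. In IL-4 knockout 6 of the 70 rose and 3 fell, close to the shares over all genes (5.14% and 3.94%), while 19 of the 40 rose. The dKO-labelled diet effect was higher than that of wild type for 33 and lower for 7, where 12.6% and 12.6% of all genes were. On HFD 17 were lower and 5 higher in dKO-labelled than in wild-type livers, where 11.6% and 12.9% of all genes were. The share lowered in dKO-labelled chow was 12 of 12 among further mitochondrial enzymes and 13 of 15 among further peroxisomal enzymes. It was 9 of 14 among further PPARA targets. It was 5 of 12 among genes of fatty acid uptake, activation and the brake on mitochondrial entry. Among ketone body enzymes and carriers 4 of 6 were lower and 2 higher. Among PPARA partners and related receptors 2 of 11 were lower and 2 higher.

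Among the further peroxisomal enzymes, catalase, Cat, which breaks down hydrogen peroxide, averaged 3601 ± 177 (SD, n = 4) CPM in wild-type chow and 1585 ± 35.7 (SD, n = 4) in dKO-labelled chow (-1.18, SE 0.14, adjusted p = 1.40e-06). Its diet effect was 0.93 (SE 0.14, adjusted p = 2.66e-05) in dKO-labelled and -0.17 (SE 0.13, adjusted p = 0.405) in wild-type livers. Lonp2, the peroxisomal protease, fell on chow by 0.68. In the mitochondrial list Acad10, Acad12 and Pcca, the last a propionyl-CoA carboxylase subunit, fell by 1.19, 0.92 and 0.89 on chow and rose with the diet by 1.11, 1.56 and 0.83 in dKO-labelled livers.

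Of the genes of uptake, Slc27a2, a very-long-chain acyl-CoA synthetase, averaged 1414 ± 100 (SD, n = 4) CPM in wild-type chow, 672 ± 86.3 (SD, n = 4) in dKO-labelled chow and 1936 ± 325 (SD, n = 4) in dKO-labelled HFD, a diet effect of 1.53 (SE 0.13, adjusted p = 4.93e-07). Slc25a20, the carnitine-acylcarnitine carrier, fell on chow by 0.69 and rose with the diet by 1.01 in dKO-labelled livers. Acsl3, a synthetase of the endoplasmic reticulum and lipid droplets, was not among the genes lowered in dKO-labelled chow livers. It averaged 33.9 ± 2.1 (SD, n = 4) CPM in wild-type, 16.8 ± 1.59 (SD, n = 4) in IL-4 knockout and 42.4 ± 9.74 (SD, n = 4) in dKO-labelled chow. It was lower in IL-4 knockout than in wild type on chow (-1.02, SE 0.18, adjusted p = 9.41e-04) and on HFD (-1.28, SE 0.19, adjusted p = 4.97e-04), and with the diet it rose in wild type (0.59, SE 0.17, adjusted p = 0.0155) and fell in dKO-labelled livers (-0.69, SE 0.16, adjusted p = 0.00229). The wild-type rise was lost without wild-type HFD replicate 4 (adjusted p = 0.0681).

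Among further targets, Retsat, the retinol saturase, was 3.67-fold lower in dKO-labelled than in wild-type chow livers (-1.88, SE 0.23, adjusted p = 3.45e-06), and Mgll, the monoglyceride lipase, and Tmem135 fell by 0.82 and 0.48. Tmem135 was lower on HFD as well (-0.56, SE 0.10, adjusted p = 3.95e-04), and its diet effects in dKO-labelled and wild-type livers differed by -0.07 (SE 0.14, adjusted p = 0.734). Among the partners, Pparg, the receptor of fat storage, rose with the diet in wild type (1.41, SE 0.23, adjusted p = 4.44e-04) and in dKO-labelled livers (0.91, SE 0.23, adjusted p = 0.00409), and was lower in the latter on HFD (-1.03, SE 0.22, adjusted p = 0.00266). Esrra, an orphan receptor that drives mitochondrial genes, and the coactivator Ppargc1b were higher in IL-4 knockout than in wild-type chow livers (0.57, SE 0.09, adjusted p = 2.85e-04 and 1.05, SE 0.25, adjusted p = 0.00984). The Esrra mean was 31.9 ± 2.5 (SD, n = 4) CPM against 21.4 ± 2.24 (SD, n = 4). Both were lower in dKO-labelled than in IL-4 knockout chow livers (-0.43, SE 0.09, adjusted p = 4.31e-04 and -1.50, SE 0.24, adjusted p = 5.01e-05).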

How the data were processed

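RNA from 23 perfused mouse livers was sequenced as stranded poly(A)-selected libraries, per the labels' protocols. The submitters' processing notes list TopHat2 2.0.8, bcl2fastq 2.16 and Partek beside the build mm10, in no stated order. For the counting, annotation and strand setting were not given in the sources used here, so reads of overlapping genes cannot be told apart. The deposited table holds estimated counts for 24440 genes, of which 95.6% to 97.5% of a library's values lie within 0.05 of a whole number, and they were rounded here. The authors also deposited a table of log2 values for 14078 genes, which served as an alternative only.

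Libraries were grouped by the labelled genotype and diet, and replicates are separate mice. edgeR 4.0.16 (R 4.3.3) with TMM scaling, filterByExpr and a robust quasi-likelihood fit of 6 group means (17 residual degrees of freedom) gave 9 pairwise contrasts, 3 differences between diet effects and 1 test over all groups. P-values were adjusted by Benjamini-Hochberg over all 12891 genes tested, and an adjusted p below 0.05 is a call. CPM values use TMM library sizes. Library totals ran from 7114454 to 30205070. Alternatives were RLE and upper-quartile scaling, no or a stricter filter, DESeq2 1.42.0, limma 3.58.1 (voom on the counts, trend on the log2 values), fits of only the groups compared, thinning to the smallest library, and leaving out each library. The tests were also tried on simulated counts, where recovery was read for the wild-type diet effect only.

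The 40 genes and all other lists were chosen with earlier results of these data known. Every one of the 40 may be named, with values in every library for both regulators, Bdh1 and the 3 genes of each other role with the smallest p over the 6 groups. Pathway genes were named as the 3 called genes of smallest p in each list, and 3 of those the rule picks are not reported here. Oxct1 and Slc16a1 were added after their values were seen. No sample was left out of the fit.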

Additional observations from a re-analysis of the deposited data

Results flagged for a closer look

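Single livers far from the other livers of their group were looked for in groups of 4, by the gap to the nearest other liver as a share of the group's whole range (above the critical value of Dixon's test, which chance passes in about 1 in 20 groups). Of 200 sets of member values 16 passed (8%), of 85 sets of named pathway genes 9 (10.6%), and of 40 sets of summed markers 5 (12.5%). In dKO-labelled HFD replicate 4 the lowest values of the group were Cpt2 at 122 CPM against 217 to 234, Acadvl at 409 CPM against 482 to 487, Etfdh at 258 CPM against 415 to 427 and Hsd17b4 at 392 CPM against 687 to 739. The same liver was also the lowest in Pex11a at 24.8 CPM against 74.4 to 82.2, Acat1 at 328 CPM against 614 to 645, Pcca at 62.9 CPM against 92.1 to 97 and Ppargc1b at 3.52 CPM against 5.64 to 5.99. The summed neutrophil markers at 60.4 CPM against 2.63 to 4.18 was the highest value of its group in dKO-labelled HFD replicate 4. In IL-4 knockout chow replicate 4 the highest values of the group were Acsl1 at 1077 CPM against 898 to 913, Hadha at 444 CPM against 399 to 405, Decr1 at 245 CPM against 191 to 195 and Etfb at 257 CPM against 238 to 241. The same liver was also the highest in Etfdh at 386 CPM against 341 to 343, Acat1 at 526 CPM against 441 to 452, Slc27a2 at 1921 CPM against 1579 to 1622 and Lonp2 at 435 CPM against 361 to 370.4. In dKO-labelled HFD replicate 2 the lowest values of the group were Ucp2 at 33.6 CPM against 47.8 to 50.4 and Slc16a1 at 40.1 CPM against 48 to 49.1. Hadhb at 95.6 CPM against 108 to 109 was the lowest value of its group in wild-type HFD replicate 2. Etfa at 208 CPM against 194 to 196 was the highest value of its group in wild-type HFD replicate 3. Acaa1a at 143 CPM against 119.6 to 123 was the highest value of its group in dKO-labelled chow replicate 4. Acot3 at 25.1 CPM against 2.73 to 4.45 was the highest value of its group in dKO-labelled HFD replicate 3. Pdk4 at 65.7 CPM against 28.8 to 31.4 was the highest value of its group in wild-type HFD replicate 4. Cat at 1639 CPM against 1564 to 1571 was the highest value of its group in dKO-labelled chow replicate 1. Pparg at 7.99 CPM against 9.43 to 9.51 was the lowest value of its group in wild-type chow replicate 2. The summed hepatocyte markers at 119600 CPM against 132300 to 134100 was the lowest value of its group in dKO-labelled chow replicate 2. The summed neutrophil markers at 14.4 CPM against 1.63 to 2.6 was the highest value of its group in IL-4 knockout chow replicate 3. The summed macrophage markers at 368 CPM against 278 to 284 was the highest value of its group in IL-4 knockout chow replicate 1. The summed adipocyte markers, all of it Cidea, at 0.467 CPM against 0.0896 to 0.14 was the highest value of its group in dKO-labelled chow replicate 3. Of these libraries dKO-labelled HFD replicate 4 and IL-4 knockout chow replicate 4 came up most often, and the cause was not tested.

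The effect of HFD differed between dKO-labelled and wild-type livers, by edgeR's test of the difference between diet effects at an adjusted p below 0.05, for 38 genes named here, pathway genes included. The values are log2 differences, dKO-labelled minus wild-type diet effect. Among the regulators they were 0.69 for Ppara and 0.71 for Creb3l3. Among the genes of binding, activation and the carnitine shuttle they were 0.92 for Fabp1, 1.30 for Acsl1, 0.50 for Cpt1a and 0.99 for Cpt2. Among the enzymes of the mitochondrial cycle they were 0.46 for Acadvl, 0.51 for Acadl, 0.64 for Acadm, 0.46 for Acads, 0.41 for Hadha and 0.69 for Acaa2. Among the auxiliary and electron transfer genes they were 0.70 for Eci1, 0.48 for Decr1, 0.49 for Etfa, 0.42 for Etfb and 0.73 for Etfdh. Among the peroxisomal genes they were 0.68 for Abcd3, 0.61 for Hsd17b4, 0.38 for Acaa1a, 1.41 for Acaa1b, 0.83 for Decr2, 0.79 for Eci2 and 0.68 for Ech1. Among the thioesterases it was 2.39 for Acot1. Among the other PPARA targets they were 1.55 for Aldh3a2 and -1.44 for Ucp2. Among the further ketone body genes they were 0.85 for Acat1, -0.85 for Oxct1 and -0.81 for Slc16a1. Among the further genes of fatty acid uptake and activation they were 0.61 for Slc25a20, 1.22 for Slc27a2 and -1.29 for Acsl3. Among the further mitochondrial enzymes they were 0.65 for Acad10 and 0.65 for Pcca. Among the further peroxisomal enzymes they were 1.10 for Cat and 0.44 for Lonp2. Among the further PPARA targets it was 1.37 for Retsat. Leaving out 1 library ended some of these calls, given here with the number of libraries of which any 1 does so and the highest adjusted p. They were Decr1 (15, 0.11 without dKO-labelled HFD replicate 1), Hadha (9, 0.083 without dKO-labelled HFD replicate 1) and Acaa1a (8, 0.0693 without wild-type chow replicate 3). Others were Slc25a20 (8, 0.0726 without dKO-labelled HFD replicate 1), Etfb (6, 0.067 without dKO-labelled chow replicate 1) and Ppara (6, 0.061 without wild-type HFD replicate 4). Others were Cpt1a (2, 0.0554 without wild-type HFD replicate 4), Hsd17b4 (1, 0.0559 without dKO-labelled HFD replicate 1) and Lonp2 (1, 0.053 without dKO-labelled HFD replicate 1).

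The effect of HFD differed between dKO-labelled and IL-4 knockout livers, by edgeR's test of the difference between diet effects at an adjusted p below 0.05, for 36 genes named here, pathway genes included. The values are log2 differences, dKO-labelled minus IL-4 knockout diet effect. Among the regulators they were 0.75 for Ppara and 0.49 for Creb3l3. Among the genes of binding, activation and the carnitine shuttle they were 1.03 for Fabp1, 1.33 for Acsl1 and 0.91 for Cpt2. Among the enzymes of the mitochondrial cycle they were 0.35 for Acadvl, 0.41 for Acadl, 0.41 for Acads, 0.42 for Hadha and 0.66 for Acaa2. Among the auxiliary and electron transfer genes they were 0.74 for Eci1, 0.53 for Decr1, 0.35 for Etfa and 0.66 for Etfdh. Among the peroxisomal genes they were -1.48 for Abcd2, 0.97 for Abcd3, 1.08 for Ehhadh, 0.70 for Hsd17b4, 0.44 for Acaa1a, 2.09 for Acaa1b, 0.74 for Decr2 and 1.02 for Pex11a. Among the thioesterases it was 2.09 for Acot1. Among the other PPARA targets they were -2.39 for Pdk4, 1.81 for Aldh3a2 and -1.48 for Ucp2. Among the further ketone body genes they were 0.81 for Acat1 and -0.90 for Slc16a1. Among the further genes of fatty acid uptake and activation they were 1.28 for Slc27a2 and -1.03 for Acsl3. Among the further mitochondrial enzymes they were 0.77 for Acad10 and 0.88 for Pcca. Among the further peroxisomal enzymes they were 1.22 for Cat and 0.63 for Lonp2. Among the further PPARA targets it was 1.28 for Retsat. Among the PPARA partners it was 1.79 for Ppargc1b. Leaving out 1 library ended some of these calls, given here with the number of libraries of which any 1 does so and the highest adjusted p. They were Pex11a (21, 0.0956 without dKO-labelled HFD replicate 3), Acadl (10, 0.0867 without IL-4 knockout HFD replicate 2) and Acadvl (9, 0.125 without IL-4 knockout HFD replicate 2). Others were Creb3l3 (9, 0.163 without IL-4 knockout HFD replicate 2), Decr1 (9, 0.0844 without dKO-labelled HFD replicate 1) and Hadha (9, 0.0829 without dKO-labelled HFD replicate 1). Others were Acads (8, 0.0697 without IL-4 knockout HFD replicate 2), Ehhadh (6, 0.0709 without IL-4 knockout HFD replicate 3) and Etfa (6, 0.112 without IL-4 knockout HFD replicate 2). Others were Acot1 (3, 0.093 without IL-4 knockout HFD replicate 2), Ppara (2, 0.0943 without IL-4 knockout HFD replicate 2) and Abcd2 (1, 0.0864 without IL-4 knockout HFD replicate 2). Others were Acaa1a (1, 0.098 without IL-4 knockout HFD replicate 2), Pdk4 (1, 0.144 without IL-4 knockout HFD replicate 2) and Ucp2 (1, 0.0661 without IL-4 knockout HFD replicate 2). The 2 tests share the dKO-labelled libraries.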

How the results depend on the processing

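Of 216 calls among the 40 genes none changed direction under any of 33 other settings, and of 90 calls of the named pathway genes none did. Calls were lost more often: DESeq2 was the 1 setting that ended none of the 216, and others ended up to 27 of them. Of the 90 pathway gene calls 16 were lost in at least 1 setting. Counts of called genes moved by over 1.5 times in few places. IL-4 knockout against wild type on chow gave 1 in place of 2 without the low-count filter, with limma-voom and after thinning. The dKO-labelled against wild-type count on HFD was 7 without the filter and 6 with only the groups compared, in place of 12. For dKO-labelled against IL-4 knockout on HFD it was 3 with DESeq2 and 0 with only the groups compared, in place of 1. The difference between the dKO-labelled and IL-4 knockout diet effects gave 14 with only the groups compared and 17 on the deposited log2 values, in place of 26. The cause was not tested. No paired analysis was possible because the labels give no replicate numbers that groups share.

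Leaving out 1 library at a time, the count ran from 18 to 30 for the diet in wild type, 9 to 27 in IL-4 knockout and 34 to 37 in dKO-labelled livers. On chow it ran from 1 to 4 for IL-4 knockout against wild type, 30 to 36 for dKO-labelled against wild type and 31 to 34 against IL-4 knockout. On HFD these ranges were 0 to 1, 6 to 13 and 0 to 4. For the differences between diet effects they were 0 to 0, 21 to 31 and 12 to 32, and over all groups 38 to 40.

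Counts over all tested genes also moved by over 1.5 times. The diet in IL-4 knockout gave 1170 calls, 528 with only the groups compared, 712 and 733 without chow replicates 1 and 3, and 236 and 2030 without HFD replicates 2 and 3. IL-4 knockout against wild type on HFD gave 389 calls, 95 with only these groups, 227 and 186 without wild-type replicates 2 and 4, and 185, 631 and 227 without IL-4 knockout replicates 1 to 3. For dKO-labelled against IL-4 knockout on HFD there were 323 calls, 589 with DESeq2, 207 with limma-voom, 4 with only these groups, 93, 39 and 1241 without IL-4 knockout replicates 1 to 3, and 106 and 118 without dKO-labelled replicates 2 and 4. The IL-4 knockout and wild-type diet effects differed in 6 genes, 68 with DESeq2, 21 with only these groups, 14 on the log2 values, 3 after thinning and 3 to 10 without single libraries. The dKO-labelled and wild-type effects differed in 3254 genes, 2165 after thinning and 2130 without dKO-labelled HFD replicate 2. The dKO-labelled and IL-4 knockout effects differed in 3144 genes and in 1293 without IL-4 knockout HFD replicate 2. Thinning to the smallest library, the test of depth made here, ended calls of abundant genes such as Acadvl and Hadha. Thinning also ended calls of less abundant genes, among them Pdk4 and Acot4 (17.4 and 22.4 CPM on average), Ucp2 and Crat. No call of Acot2 or Acot3 was lost after thinning.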
